A study of Danio rerio with 3 samples.

Results

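The genes described here encode the proteins of the cytosolic ribosome. They were chosen by name alone: every entry of the count tables whose symbol starts with rpl, rps or rplp followed by a digit, without the rps6k kinases. The rule took 81 of 27282 genes, which were 44 rpl genes, 4 rplp genes and 33 rps genes. Single-cell RNA-seq had been made from wt zebrafish embryos of the LondonAB strain, to follow hindbrain neurogenesis from before its patterning to its established pattern. Hindbrains with the tissue around them were dissected, 40 were pooled per stage, and each pool gave 1 droplet library (10x Genomics Chromium). Embryos were at 16 hpf after growth at 25°C, at 24 hpf after growth at 28.5°C, or at 44 hpf after growth at 25°C, so that stage, growth temperature and library cannot be told apart. Every library carries the genotype wt, and the labels name no transgene or agent given to the embryos. Cells were freed with papain.

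The ribosome is built from a small subunit, which reads the mRNA, and a large subunit, which joins the amino acids. Each rps gene encodes a protein of the small subunit and each rpl gene a protein of the large subunit. The rplp genes encode the stalk of the large subunit, which recruits the factors that drive translation. In vertebrates the mRNAs of these proteins start with a terminal oligopyrimidine tract, through which growth signalling by mTOR controls their translation as a group. In the hindbrain, progenitors divide at the ventricle and give rise to neurons that leave the cycle and extend axons. The name rule also took 2 genes whose products are not structural proteins of the cytosolic ribosome: rpl7l1, whose product is a nucleolar factor of large subunit assembly, and rps19bp1, whose product binds Rps19.

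The libraries held 2929, 2568 and 3529 cells at 16, 24 and 44 hpf, with a median of 9844, 8177 and 2727 UMIs per cell. A UMI (unique molecular identifier) counts 1 captured mRNA molecule, and levels are given as CPM, in which the UMIs of a gene are scaled to the same total for each group of cells, with no division by gene length. UMIs are counted at 1 end of the mRNA. Mitochondrial genes took 1.04, 0.855 and 1.484% of the UMIs, and 37 cell barcodes occurred in more than 1 library. After removal of 867 outlying cells, cells were clustered without the 81 genes and named by marker genes. Progenitor-like cells (sox2, sox3 and notch genes among the markers) numbered 1567, 1100 and 1125 at 16, 24 and 44 hpf. Differentiating cells (elavl3 and elavl4 among the markers) numbered 67, 316 and 1414. Their 16 neuronal markers summed to 4636, 10564 and 11642 CPM, against 137, 457 and 2254 CPM in the progenitor-like cells. The 67 differentiating cells at 16 hpf held 11914 CPM of the 14 progenitor markers, no less than the 11518 CPM of the progenitor-like cells of that stage. With 1 library per stage there is no replicate and no test. Intervals are 95% intervals of counting error only, and a gene is called higher or lower past a ratio of 1.5, at a mean level of at least 20 CPM.

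The 81 genes took about 3 in 10 of all UMIs. Their share was 30.6% of the UMIs at 16 hpf, 31.0% at 24 hpf and 28.0% at 44 hpf, over all cells of each library. They made up 6 of the 10, 33 of the 50 and 62 of the 100 genes with most UMIs. In the libraries of 16 and 24 hpf alike, 74 of the 81 were seen in at least 99% of the cells. At 44 hpf, where cells were shallower, 61 were seen in at least 99% and 71 in at least 90% of the cells. The small subunit genes gave between 38.0 and 39.2% of the members' UMIs in every named class at every stage.

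**Figure D1:**
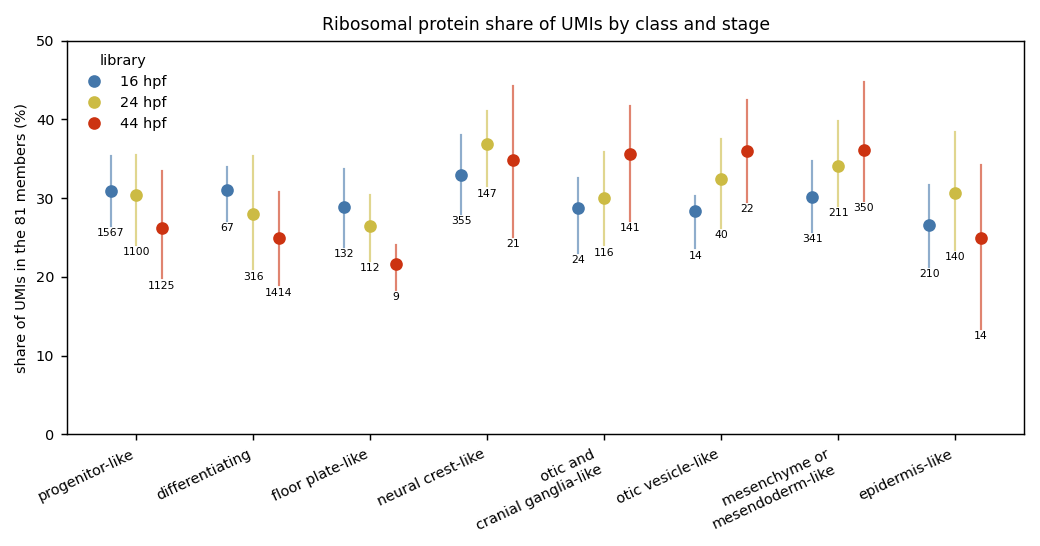
Share of UMIs (%, y axis) in the 81 genes for 8 cell classes (x axis) in the libraries of 16, 24 and 44 hpf. Points are shares of the summed UMIs, lines span the 10th to the 90th percentile of single cells, and numbers give the cells: neural classes sit lowest at 44 hpf, while mesenchyme-like, ganglia-like and otic vesicle-like cells sit highest there.

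In the neural classes, each taken as a whole, the share was lower at later stages. Progenitor-like cells held 30.9% at 16 hpf, 30.4% at 24 hpf and 26.3% at 44 hpf. Their clusters differed: at 24 hpf that led by zic4 and casz1 held 31.7% (556 cells) and that led by sp8a and sox21a 28.9% (526 cells). At 16 hpf the clusters led by her3, by fuom and by lim2.1 held 30.6, 31.5 and 30.6%. Those of 44 hpf ranged more widely. The clusters led by slc1a3b and by BX465834.1 held 28.5% (395 cells) and 27.0% (410 cells), and that led by si:ch211-251b21.1 held 22.7% (315 cells). Differentiating cells held 31.0%, 28.0% and 24.9%, but the make-up of this class differed between stages. The cluster led by zgc:77784 and draxin gave all 67 cells at 16 hpf and 237 of 316 at 24 hpf, where it held 29.9%. At 44 hpf that led by otpa and lhx1a gave 588 of 1414 cells. From 24 to 44 hpf the tal1 and gata2a cluster went from 27.215% (28 cells) to 27.0% (145 cells). The snap25a cluster went from 21.3% (24 cells) to 19.5% (206 cells). Floor plate-like cells, named after the ventral midline of the neural tube, held 28.9%, 26.5% and, in 9 cells, 21.6%. Of them, 105 of 132 at 16 hpf and 90 of 112 at 24 hpf lay in a cluster led by nkx2.9, nkx2.2b and nkx2.2a. The cluster led by shha and spon1b held 28.0% (27 cells) and 25.2% (22 cells) at these stages. The 8 floor plate markers summed to 1778, 3850 and 15825 CPM, so the make-up of this class differed between stages. The ratio in progenitor-like cells was 0.983 (0.982 to 0.985) from 16 to 24 hpf and 0.865 (0.863 to 0.867) from 24 to 44 hpf. In differentiating cells it was 0.903 (0.898 to 0.907) and 0.891 (0.888 to 0.894). Single cells overlapped widely: the 10th to 90th percentile of the share ran from 26.5 to 35.4% in progenitor-like cells at 16 hpf and from 19.8 to 33.5% at 44 hpf. The median progenitor-like cell held 3160 member UMIs and 7083 others at 16 hpf, against 709 and 1919 at 44 hpf.

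Depth and stress genes moved with stage as well. Median depth in progenitor-like cells was 10267, 7973 and 2671 UMIs. Progenitor-like cells of each stage were cut into 3 equal groups by depth. From the shallowest to the deepest group the share was 25.7, 27.6 and 25.6% at 44 hpf and 28.5, 30.3 and 31.1% at 24 hpf, and 30.7, 31.1 and 30.8% at 16 hpf. The share of the deepest group at 44 hpf (median 4093 UMIs) lay below that of the shallowest at 24 hpf (median 5121 UMIs). With 2000 UMIs drawn from each cell that held as many, the ratio from 24 to 44 hpf in progenitor-like cells was 0.889. In the library of 44 hpf 658 cells held fewer and were left out. Such a draw leaves the expected share of a cell unchanged, so it cannot show what depth does to the share. A list of 14 dissociation and stress genes took 1.18, 1.76 and 2.68% of the UMIs of progenitor-like cells at the successive stages, led by the heat shock genes hsp70.3 (4305, 7208 and 10391 CPM) and hsp70l. With this list out of the denominator the ratio from 24 to 44 hpf was 0.873. A list with so small a share of the UMIs can move this ratio only slightly. Any effect of stress on the members' share was not tested. Haemoglobin genes, a sign of free RNA in cells that do not make it, summed to 2.22, 9.82 and 98.4 CPM in the progenitor-like cells. The part of free RNA in the members' shares was not tested.

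Outside the neural tube the order of the stages was the opposite in several classes. Mesenchyme or mesendoderm-like cells held 30.1% at 16 hpf (341 cells), 34.1% at 24 hpf (211 cells) and 36.1% at 44 hpf (350 cells). Otic and cranial ganglia-like cells, which are sensory neurons and their precursors, held 28.7, 30.005 and 35.6% (24, 116 and 141 cells). Otic vesicle-like cells held 28.4, 32.5 and 36.0% (14, 40 and 22 cells). Neural crest-like cells held 32.9, 36.9 and 34.9% (355, 147 and 21 cells), the highest share of any named class at 16 and 24 hpf. The 21 crest-like cells of 44 hpf held 10030 CPM of neural progenitor markers beside 1508 CPM of neural crest markers, where those of 16 and 24 hpf held 2648 and 1785 CPM of the progenitor markers. Epidermis-like cells held 26.6, 30.7 and, in 14 cells, 25.0%. At 44 hpf, ganglia-like cells and differentiating cells of the hindbrain stood apart, at 35.6 and 24.9%, with median depths of 3731 and 2364 UMIs. Of 3 groups by depth, the shallowest ganglia-like cells held 31.8% (median 2315 UMIs) and the deepest 38.4% (median 4948 UMIs). Differentiating cells held 24.4, 25.9 and 24.6% from the shallowest to the deepest group. The ganglia-like cells also held 5741 CPM of the neural progenitor markers, against 1368 CPM in the differentiating cells.

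Mesenchyme-, epidermis- and vasculature-like cells together form the non-neural cells, of which there were 561, 363 and 365. Their share was 28.8, 32.5 and 35.7%, and its ratio over progenitor-like cells of the same library was 0.933 (0.931 to 0.935) at 16 hpf, 1.07 (1.07 to 1.07) at 24 hpf and 1.36 (1.35 to 1.36) at 44 hpf. The make-up differed between stages: epidermis-like cells were 210 of 561 at 16 hpf and 14 of 365 at 44 hpf. With mesenchyme-like cells alone the ratios were 0.975, 1.12 and 1.38. The cluster that holds the 350 mesenchyme-like cells of 44 hpf was led by the haemoglobin genes hbbe1.1 and hbae3, besides matn4 and col9a1a of cartilage matrix. In this class 2 cells had over 1% of their UMIs in haemoglobin genes, up to 42.2%. Without them the class held 94.0 CPM of haemoglobin genes in place of 3354, and its member share was 36.4%. The 12 mesenchyme markers summed to 3561 CPM in the class, against 64.6 CPM in progenitor-like and 25.0 CPM in differentiating cells of 44 hpf. With all cells kept and clustered anew, which also changed the members of each class, the ratio was 1.14 at 44 hpf and 0.999 at 24 hpf. The classes of 44 hpf then held 277 mesenchyme-like cells in place of 350 and 161 neural crest-like cells in place of 21. They also held 68 epidermis-like cells in place of 14, of which 53 were among the cells removed elsewhere. These 68 cells had a median of 8320 UMIs and a share of 24.3%, and 29 blood-like cells had 18.3%. The 277 mesenchyme-like cells held 33.9%, against 26.1% in the progenitor-like cells so formed. The effect of the removal alone was not tested.

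The 5 members with most UMIs were rplp1, rpl37.1, rpl39, rpl32 and rps2. Rplp1 is a protein of the stalk and Rpl39 lies at the wall of the exit tunnel of the nascent chain. rplp1 was at 10608, 10197 and 7975 CPM over all cells at 16, 24 and 44 hpf, rpl37.1 at 11118, 9230 and 8590 CPM and rpl39 at 8259, 9014 and 7902 CPM. rpl32 was at 8886, 7475 and 7277 CPM and rps2 at 8657, 8044 and 6501 CPM. The median member stood at 3221, 3454 and 3178 CPM in progenitor-like cells at the successive stages. At the low end, rps8b had 10 UMIs in all cells, rpl37 1019, rps19bp1 3157, rpl7l1 6686 and rps27.2 44328. The order of the members by level was nearly the same everywhere: over 36 pairs of groups (progenitor-like, differentiating and non-neural cells at 3 stages) Spearman's rho across the 81 genes was between 0.932 and 0.997. Groups of 1 stage share a library, and genes are not replicates.

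**Figure D2:**
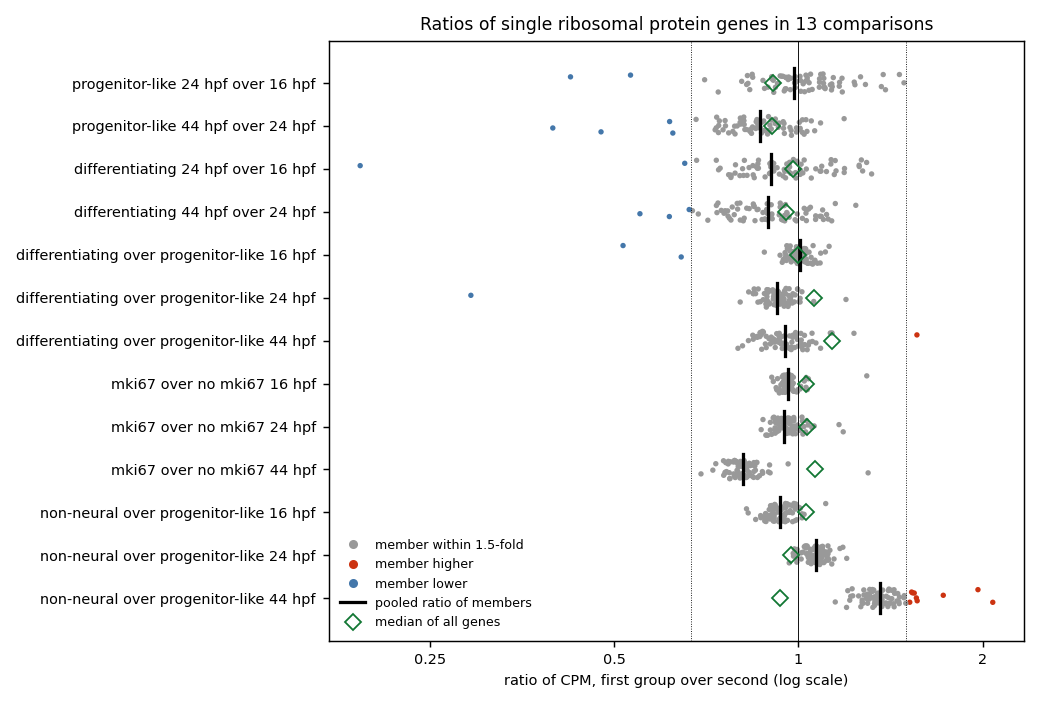
Ratio of CPM (x axis, log scale) of each tested member in the 13 comparisons (y axis), with dotted lines at a ratio of 1.5 in either direction. Black bars are the pooled ratios of the members, from 0.811 to 1.36, and diamonds the medians of all genes tested. Of the 81 members, 69 were past the fold in none of the comparisons in which they were tested. These include rps8b, which was too low in level to be tested. The same count was not made over all genes, so this one has no background.

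Few single members were past the fold between stages, but many lay away from the pooled ratio. Within 10% of it lay 39 of 79 and 47 of 79 members in progenitor-like cells at the successive steps. In differentiating cells 39 of 79 and 36 of 78 did. From 16 to 24 hpf in progenitor-like cells, 0 of 79 members tested were higher and 2 were lower past the fold, where 10.7% of all 3772 genes tested were higher and 20.8% lower. The members' median ratio was 1.01 and that of all genes 0.910. From 24 to 44 hpf, 0 members were higher and 4 of 79 lower (rpl4, rpl5a, rpl7l1 and rps19bp1), where 16.5% of all genes were higher and 26.1% lower, and 67 of 79 lay below 1, with a median of 0.865 against 0.905. In differentiating cells, 0 were higher and 2 of 79 lower from 16 to 24 hpf (all genes: 23.1% higher and 24.9% lower), and 0 were higher and 3 of 78 lower from 24 to 44 hpf (all genes: 17.3% higher and 22.5% lower). The members past the fold were thus fewer than the share of all genes in each of these comparisons. Most members lay far above the minimum level, with a median of 3221 CPM in progenitor-like and 3264 CPM in differentiating cells of 16 hpf. The genes tested reach down to that minimum, where counting error is larger. Genes of matched level were not compared, so these shares, here and below, do not show that the members are unusually stable.

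Rpl5 carries the 5S rRNA into the ribosome together with Rpl11, and zebrafish tables list it as rpl5a and rpl5b. rpl5a was at 1109, 1147 and 706 CPM in progenitor-like cells and at 1227, 951 and 585 CPM in differentiating cells, a ratio from 24 to 44 hpf of 0.616 (0.589 to 0.644) and 0.615 (0.579 to 0.654). rpl4, whose protein lines the exit tunnel, was at 1367 CPM at 24 hpf and 852 CPM at 44 hpf in progenitor-like cells, a ratio of 0.623 (0.598 to 0.649). In differentiating cells its ratio was 0.671, just inside the fold. rps12, of the small subunit, went from 6556 to 4346 CPM in differentiating cells and was past the fold (0.663), and rpl10a from 3007 to 2063 CPM (0.686). rplp0, the base of the stalk, went from 5611 to 3818 CPM in progenitor-like cells (0.680) and rpl12 from 4107 to 3002 CPM (0.731). At the other end stood rplp2, at 2164, 2523 and 2996 CPM in progenitor-like and 1903, 2185 and 2711 CPM in differentiating cells. Its ratio from 24 to 44 hpf, 1.19 (1.16 to 1.22) and 1.24 (1.199 to 1.28), was within the fold. rpl35 (1.06), rpl28 (1.05) and, of the small subunit, rps13 (1.09) also lay above 1 in progenitor-like cells. In differentiating cells so did rpl31 (1.15), rpl19 (1.13) and rpl36 (1.12).

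From 16 to 24 hpf other members led. rpl5b went from 771 to 1147 CPM in progenitor-like cells, a ratio of 1.49 (1.45 to 1.53), and rpl6 from 1459 to 2133 CPM (1.46). rpl13a (1.38) was also among the 4 highest, and in differentiating cells rpl13a (1.32), rps18 (1.29) and rpl6 (1.27) were. rpl36 was at 7397, 5469 and 5488 CPM in progenitor-like cells, and at 7815 and 5095 CPM in differentiating cells of 16 and 24 hpf, where it was lower past the fold (0.652, 0.630 to 0.675). rpl22l1 went from 1168 to 820 CPM in progenitor-like cells (0.703) and from 1170 to 798 CPM in differentiating cells (0.682). rpl37.1 (0.808) and, in differentiating cells, rpl11 (0.734) were also among the 4 lowest. Each stage is 1 library, so these values compare single libraries.

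Differentiating and progenitor-like cells of the same library were compared next, which leaves stage out. At 16 hpf their shares were alike, at a ratio of 1.005 (1.000 to 1.009). Other ways to form the classes put this ratio between 0.961 and 1.00, so that it has no settled direction. At 24 hpf the ratio was 0.922 (0.920 to 0.925) and at 44 hpf 0.9501 (0.947 to 0.953). Differentiating cells were shallower, with medians of 6546 against 7973 UMIs at 24 hpf and 2364 against 2671 at 44 hpf. In 3 depth groups of 24 hpf they held 27.0, 28.9 and 27.8%, at medians of 4494.5, 6549 and 9547 UMIs. Progenitor-like cells held 28.5, 30.3 and 31.1%, at medians of 5121, 7973 and 12268 UMIs. The part of depth in these ratios was not tested. Past the fold, 0 members were higher and 2 of 79 lower at 16 hpf (all genes: 22.9% higher and 23.6% lower), 0 higher and 1 of 79 lower at 24 hpf (30.5% and 23.7%), and 1 higher and 0 of 77 lower at 44 hpf (31.8% and 19.2%). At 24 hpf 73 of 79 and at 44 hpf 58 of 77 members lay below 1, while the medians of all genes were 1.06 and 1.14. The share differed more among the differentiating cells than between them and the progenitors. The cluster led by snap25a and syngr3b, genes of synaptic vesicle release, held 21.3% at 24 hpf (24 cells) and 19.5% at 44 hpf (206 cells), the lowest of the clusters at each of these stages, at median depths of 9556 and 2893 UMIs. The cluster led by otpa and lhx1a held 26.9% at 44 hpf (588 cells), as much as the tal1 and gata2a cluster (27.0%, 145 cells). Without the snap25a cluster the ratio at 44 hpf was 0.993 and at 24 hpf 0.947.

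The member furthest above its pool in neurons was rps27.2. Rps27 is a zinc finger protein of the small subunit, for which the tables list rps27.1 and rps27.2. rps27.2 was at 628, 654 and 548 CPM in progenitor-like cells and at 657, 782 and 856 CPM in differentiating cells. Its ratio was 1.196 (1.13 to 1.26) at 24 hpf and 1.56 (1.47 to 1.66) at 44 hpf, where it was the 1 member past the fold. Next at 44 hpf were rpl19 (4298 and 5296 CPM, 1.23), which takes part in a bridge between the subunits, rpl24 (1.13) and rpl22 (1.13). The lowest at 44 hpf were rpl3 (2862 and 2280 CPM, 0.796), near the catalytic centre, rpl5b (0.810), rpl5a (0.828) and rpl7 (0.842). At 24 hpf the 1 member past the fold was rpl7l1 (66.9 and 19.5 CPM, 0.292), and among members of at least 100 CPM in 1 of the compared groups, to which the order of ratios given here is limited, the lowest were rpl5b (0.803), rpl5a (0.829), rplp1 (0.843) and rps2 (0.844), and after rps27.2 the highest were rpl14 (1.06), rpl24 (1.01) and rps26 (1.01). At 16 hpf rpl5a (1.11), rpl24 (1.09) and rpl34 (1.085) were among the 4 highest, and rplp2 (0.880), rpl31 (0.933) and rps10 (0.941) were the lowest structural members named.

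The members that are no structural proteins were low in level. rpl7l1 was at 158, 66.9 and 26.6 CPM in progenitor-like cells, a ratio of 0.424 (0.388 to 0.463) from 16 to 24 hpf and of 0.397 from 24 to 44 hpf. In differentiating cells it was at 102, 19.5 and 12.1 CPM. rps19bp1 was at 63.2, 33.6 and 16.0 CPM in progenitor-like cells and at 32.7, 31.1 and 17.1 CPM in differentiating cells. The 24 genes of a ribosome biogenesis list, set beside them, summed to 7523, 3066 and 1126 CPM in progenitor-like cells. Of them, 19 of 21 tested were lower from 16 to 24 hpf and 17 of 17 from 24 to 44 hpf, with pooled ratios of 0.408 and 0.367, where 20.8 and 26.1% of all genes were lower. The nucleolar genes npm1a (1520, 498 and 104 CPM) and ncl were the most abundant. The pooled ratios of the members over the same steps were 0.983 and 0.865.

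**Figure D3:**
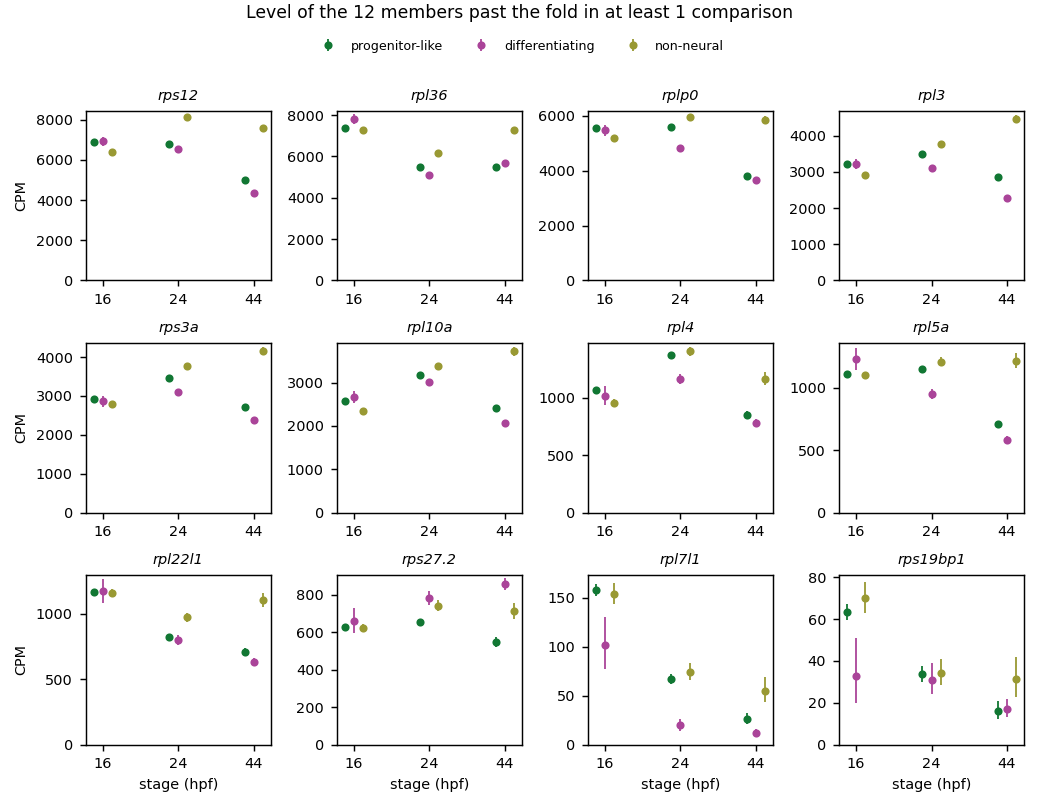
Level (CPM, y axis) of the 12 members past the fold in at least 1 comparison, by stage (x axis, hpf), in progenitor-like, differentiating and non-neural cells; error bars are 95% Poisson intervals of counting error. Non-neural cells stand highest at 44 hpf in all of them but rps27.2, which is highest in differentiating cells.

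Progenitor-like cells were divided by mki67, which encodes a nuclear protein of cycling cells. A UMI of mki67 was seen in 1241 of 1567 cells at 16 hpf, 786 of 1100 at 24 hpf and 209 of 1125 at 44 hpf. Cells with it held a lower share of member UMIs at each stage. The shares with and without were 30.7 and 31.9% at 16 hpf, 30.01 and 31.6% at 24 hpf, and 22.3 and 27.5% at 44 hpf. The ratios were 0.961 (0.958 to 0.963), 0.948 (0.946 to 0.951) and 0.811 (0.806 to 0.815). Cells with an mki67 UMI were deeper, with medians of 10747 against 8524, 8950 against 6204 and 3771 against 2528 UMIs. Within each of the 3 depth groups the order was the same. At 44 hpf it was 21.96 against 26.2% in the shallowest group, with medians of 1994 and 1980 UMIs, and 22.2 against 27.9% in the deepest. With the state read from 2000 UMIs drawn per cell, the ratios were 0.973, 0.967 and 0.810.

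At 44 hpf most mki67 cells lay in 1 cluster. It was led by si:ch211-251b21.1 and scrt1b, and 149 of its 315 cells had an mki67 UMI. The share was low in this cluster with or without the UMI, at 21.2 and 24.9%, a ratio of 0.851. In the other progenitor-like clusters of 44 hpf, led by BX465834.1 and by slc1a3b and gsx2, the shares were 24.7 and 27.23% (25 and 385 cells) and 25.7 and 28.8% (33 and 362 cells), ratios of 0.907 and 0.892. The 3 clusters of 16 hpf and the 2 of 24 hpf gave ratios between 0.948 and 0.965, so that cells with an mki67 UMI were lower in all 8 clusters. At 16 and 24 hpf, 0 members were past the fold (all genes: 3.04% higher and 0.264% lower at 16 hpf, 5.15% and 0.906% at 24 hpf). At 44 hpf 0 of 78 were past it, where 18.0% of all genes were higher and 8.23% lower, yet 77 of 78 lay below 1. The lowest were rpl29 (3823 CPM without and 2649 CPM with the UMI, 0.693), rpl35 (0.725), rps27.2 (0.733) and rpl30 (0.754). The highest with enough UMIs was rpl5a (0.962). rps28 was the lowest at 16 hpf (0.904) and 24 hpf (0.869), and rpl12 was above 1 at both (1.03 and 1.06). The 11 genes of the G2 and M phase list, which mark dividing cells, were 10 of 11 higher at 16 hpf and 11 of 11 at 24 and 44 hpf. The S phase list went the other way at 16 hpf, at 4059 CPM with and 4666 CPM without the UMI. It did so at 24 hpf too (3586 and 4026 CPM), but not at 44 hpf (1134 and 454 CPM). The mki67 split thus does not part cycling from resting cells at 16 and 24 hpf.

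**Figure D4:**
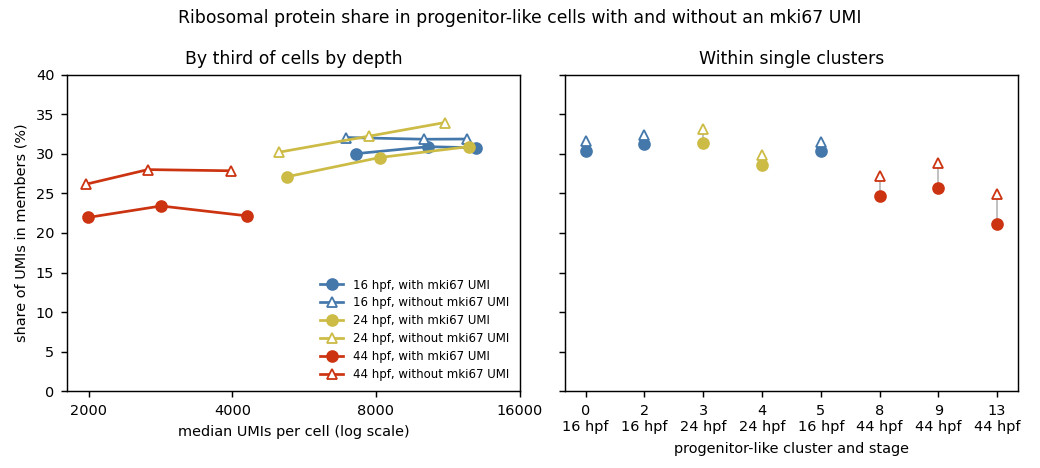
Share of UMIs in the members (%, y axis) in progenitor-like cells with an mki67 UMI (filled circles) and without (open triangles). Left, by median depth (log scale) in the 3 depth groups of each stage; right, within the 8 progenitor-like clusters: the triangles lie above the circles throughout, by most at 44 hpf.

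In non-neural against progenitor-like cells, 0 members were past the fold at 16 hpf, where 21.7% of all genes were higher and 9.22% lower, and 0 at 24 hpf (22.1% and 19.5%). At 44 hpf 9 of 79 were higher and 0 lower, where 22.5% of all genes were higher and 27.8% lower. All 79 lay above 1, with a median of 1.36 against 0.935 for all genes. Scaling to the UMIs of other genes multiplies every gene of this comparison by the same factor, 0.20 on the log2 scale, so that counts past a fixed fold move with it. rpl5a stood at 1217 CPM in non-neural and 706 CPM in progenitor-like cells of 44 hpf (1.72, 1.62 to 1.84), rpl22l1 at 1101 and 704 CPM (1.56), rpl3 at 4461 and 2862 CPM (1.56) and rpl10a at 3723 and 2408 CPM (1.55). The others past the fold were rplp0, rps12, rps3a, rpl7l1 and rps19bp1. The lowest ratios were those of rps21 (1.15), rpl18 (1.198), rps16 (1.204) and rpl28 (1.21). rpl18 was also the lowest at 16 hpf (0.822) and 24 hpf (0.966), and rps4x the third lowest at 16 hpf (0.851) and the second lowest at 24 hpf (0.980). rps12 was at 8141 CPM in non-neural and 6789 CPM in progenitor-like cells of 24 hpf, the highest ratio there (1.199). Of the ribosome biogenesis list, 14 of 16 were higher in non-neural cells at 44 hpf, npm1a among them (416 and 104 CPM).

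Several ribosomal proteins are encoded by like-named genes, and the shares within a pair differed between stages. rplp2 gave 24.0, 26.6 and 36.7% of the UMIs of rplp2 and rplp2l in progenitor-like cells, 21.6, 26.0 and 36.8% in differentiating cells and 25.5, 30.1 and 34.7% in non-neural cells. rpl5a gave 59.0, 49.998 and 44.5% of the UMIs of rpl5a and rpl5b in progenitor-like cells, 62.6, 50.8 and 45.0% in differentiating cells and 62.1, 49.3 and 48.6% in non-neural cells. rpl22l1 gave 33.3, 26.2 and 25.8% of its pair with rpl22 in progenitor-like cells and 33.9, 26.6 and 21.7% in differentiating cells. Classes differed in rps27.1, which gave 86.4% of its pair with rps27.2 in progenitor-like and 81.1% in differentiating cells at 44 hpf, and 85.7 and 84.9% at 16 hpf. rps26 gave 59.2, 55.6 and 60.4% of its pair with rps26l in progenitor-like cells. In the pairs of rps8a with rps8b and rpl37.1 with rpl37 nearly all UMIs went to one gene. Reads that fit both copies of a pair may be lost or divided in the counting, so the pair shares are uncertain.

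**Figure D5:**
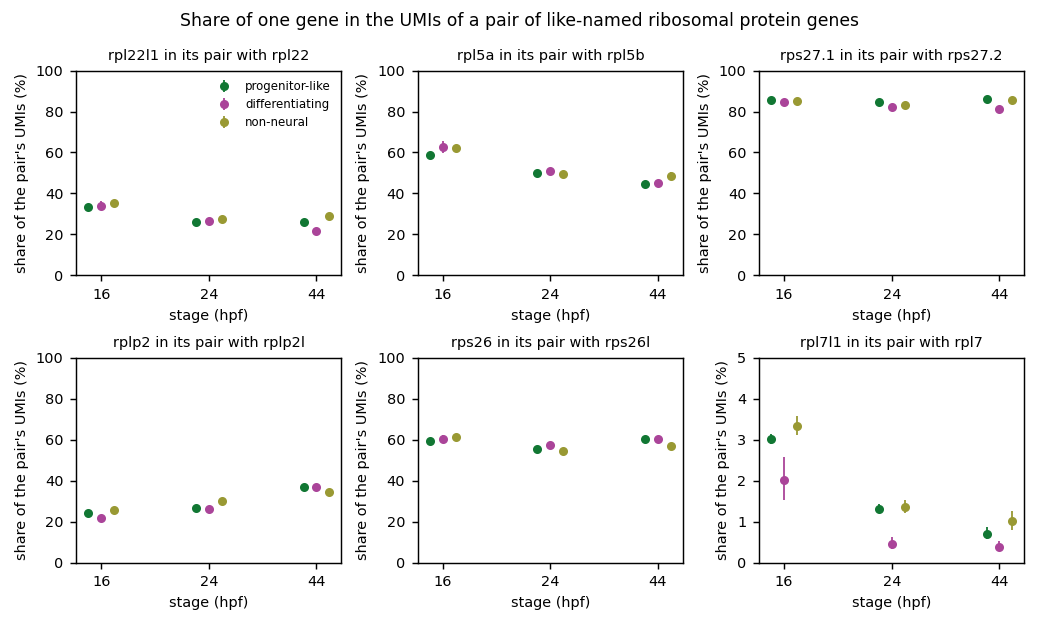
Share (%, y axis) of the first-named gene in the UMIs of 6 pairs of like-named genes, by stage (x axis, hpf), in progenitor-like, differentiating and non-neural cells; error bars are 95% Clopper-Pearson intervals of counting error. The share of rplp2 is highest and that of rpl5a lowest at 44 hpf in each group; the axis of rpl7l1 ends at 5%.

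Genes of the same machinery outside the name rule were set beside the members. Among genes for ribosomal proteins under other names, gnb2l1, which encodes Rack1, was in progenitor-like cells at 1808, 2044 and 1852 CPM. faua was at 3300, 3045 and 3114 CPM. faub, its lesser copy, was at 165, 93.6 and 73.4 CPM in progenitor-like and 131, 59.4 and 10.1 CPM in differentiating cells, past the fold between the classes at 24 hpf (0.635) and 44 hpf (0.138). A list of 36 genes of translation, initiation and elongation factors among them, was led by tpt1 and naca, which are no such factors. Its pooled ratios were 1.04 and 0.945 in progenitor-like cells at the successive steps. Genes of the mitochondrial ribosome, 73 entries led by mrpl57 and mrpl36, had 0.691 and 0.765: 24 of 58 tested were lower from 16 to 24 hpf and 11 of 46 from 24 to 44 hpf, and 0 higher, beside 20.8 and 26.1% of all genes lower and 10.7 and 16.5% higher. Of 14 regulators of growth, mycn (571, 408 and 198 CPM) and eif4ebp1 were the most abundant. Of those tested, 4 of 9 were lower and 2 higher from 16 to 24 hpf, and 5 of 8 lower and 0 higher from 24 to 44 hpf. S phase genes, 11 led by pcna (1643, 1484 and 123 CPM) and rrm2, were 11 of 11 lower from 24 to 44 hpf, and of the G2 and M phase genes, led by ube2c and nusap1, 6 of 11 were.

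The tables also hold 5 entries written in capitals, which the rule, spelled in lower case, left out, RPL41, RPL37A and RPS27L among them. RPL41 had more UMIs than any of the 81 members, at 39494, 25937 and 22062 CPM over all cells of 16, 24 and 44 hpf. With these entries the share of each library became 35.4, 34.4 and 31.1%, so that 16 hpf rather than 24 hpf was highest. The ratio in progenitor-like cells from 16 to 24 hpf became 0.948 and that from 24 to 44 hpf 0.864.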

How the data were processed

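Per the labels, the authors counted UMIs per gene and cell with Cell Ranger against GRCz10 and deposited 1 count table per library; whole-number UMI counts were used as deposited. An aggregated file was not used. The members, the gene lists and the comparisons were chosen with earlier results of these data known. Cells beyond 3 median absolute deviations in UMIs, genes or mitochondrial share of their library were removed. The libraries were merged and clustered with Seurat 5.3.0 (R 4.3.3): log-normalised counts, 2000 variable genes without the members, 30 principal components, 20 neighbours, resolution 0.8, which gave 27 clusters. Of the 2000 most variable genes 0 were members. A cluster was named from at least 3 markers (4 for ganglia, set after seeing the clusters), seen in at least 10% of its cells. No doublet caller was run, and free RNA was not removed. UMIs were summed per class and stage. Shares have exact Clopper-Pearson, CPM exact Poisson and ratios exact conditional binomial intervals at 95%, which cover counting error only (Python 3.11.15, scipy 1.17.1). The ratio step was tested on simulated counts with Poisson error alone, without the mki67 comparisons. That test does not cover differences between cells or libraries.

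Named are the 5 members with most and the 5 with fewest UMIs, and for every comparison the members with the 4 largest and 4 smallest ratios, where the group with more had 100 CPM or more and the other 10 UMIs or more; members past the fold are named too. Naming by protein identity was not applied, and pairs are taken from symbols. Alternatives were other removals of cells, resolutions, classes, depths, denominators, mki67 states, folds and minimum levels. Values of some genes that this rule or the lists take are not reported here.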

Additional observations from a re-analysis of the deposited data

Results flagged for a closer look

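Non-neural and progenitor-like cells differed in opposite directions at different stages. The ratio of the members' share was 0.933 at 16 hpf and above 1 later, with 1.07 at 24 hpf and 1.36 in the library of 44 hpf. With 1 library per stage the difference between stages was not tested, and the make-up of the non-neural cells differed between the stages.

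The 5 entries written in capitals, which the name rule does not take, held 4.82% of the UMIs at 16 hpf, 3.45% at 24 hpf and 3.13% at 44 hpf. They lie outside the comparisons and are far above the limit that a count of 0 allows.

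With no cell removed, cells of a blood-like cluster had shares of 49.4% in 30 cells at 16 hpf, 27.7% in 4 cells at 24 hpf and 18.3% in 29 cells at 44 hpf. Haemoglobin genes held 0.112, 17.9 and 30.6% of the UMIs of these cells. Of these cells, 10 of 30, 1 of 4 and 15 of 29 were among the outlying cells removed elsewhere, where no such cluster was formed and the others lay in other classes.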

How the results depend on the processing

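No paired analysis was possible because each stage is 1 library, and no library could be left out. Of 174 pooled ratios under alternatives, 57 stayed within counting error, 116 moved beyond it and 1 turned direction. Leaving aside the alternatives that were added last, of 139 ratios, 112 moved by at most 2% and 134 by at most 5%. With all cells kept, pooled ratios were 0.992 and 0.852 for progenitor-like cells over both steps, 0.921 and 0.887 for differentiating cells over both steps, 0.981 and 0.911 for differentiating over progenitor-like cells at 16 and 24 hpf, 0.958, 0.958 and 0.824 for the mki67 comparison at 16, 24 and 44 hpf, 0.893, 0.999 and 1.14 for non-neural over progenitor-like cells at 16, 24 and 44 hpf. With cells removed on the log scale they were 0.992 and 0.857 for progenitor-like cells over both steps, 0.898 and 0.898 for differentiating cells over both steps, 0.996, 0.902 and 0.946 for differentiating over progenitor-like cells at 16, 24 and 44 hpf, 0.965 and 0.824 for the mki67 comparison at 24 and 44 hpf, 0.918, 1.03 and 1.33 for non-neural over progenitor-like cells at 16, 24 and 44 hpf. At a clustering resolution of 1.6 those that moved beyond counting error were 0.895 for differentiating cells from 24 to 44 hpf, 0.954 for differentiating over progenitor-like cells at 44 hpf, 0.951 and 0.803 for the mki67 comparison at 24 and 44 hpf, 0.922 and 1.07 for non-neural over progenitor-like cells at 16 and 24 hpf. With the members added to the variable genes they were 0.860 for progenitor-like cells from 24 to 44 hpf, 0.912 and 0.903 for differentiating cells over both steps, 0.982, 0.909 and 0.954 for differentiating over progenitor-like cells at 16, 24 and 44 hpf, 0.956 for the mki67 comparison at 24 hpf, 1.37 for non-neural over progenitor-like cells at 44 hpf. With classes from marker UMIs alone they were 0.860 for progenitor-like cells from 24 to 44 hpf, 0.934 and 0.921 for differentiating cells over both steps, 0.961, 0.912 and 0.976 for differentiating over progenitor-like cells at 16, 24 and 44 hpf, 0.965, 0.963 and 0.795 for the mki67 comparison at 16, 24 and 44 hpf, 0.936, 1.07 and 1.37 for non-neural over progenitor-like cells at 16, 24 and 44 hpf. With 2000 UMIs drawn from each cell they were 0.967 and 0.889 for progenitor-like cells over both steps, 0.902 for differentiating cells from 24 to 44 hpf, 0.939 for differentiating over progenitor-like cells at 24 hpf, 0.955 and 0.806 for the mki67 comparison at 16 and 44 hpf, 0.946, 1.095 and 1.34 for non-neural over progenitor-like cells at 16, 24 and 44 hpf. As means of single cells they were 0.968 and 0.882 for progenitor-like cells over both steps, 0.938 and 0.946 for differentiating over progenitor-like cells at 24 and 44 hpf, 0.954 for the mki67 comparison at 16 hpf, 0.943 and 1.09 for non-neural over progenitor-like cells at 16 and 24 hpf. Without mitochondrial genes they were 0.870 for progenitor-like cells from 24 to 44 hpf, 0.898 for differentiating cells from 24 to 44 hpf, 0.936 for non-neural over progenitor-like cells at 16 hpf. Over the UMIs of all other genes they were 0.976 and 0.817 for progenitor-like cells over both steps, 0.865 and 0.855 for differentiating cells over both steps, 0.892 and 0.933 for differentiating over progenitor-like cells at 24 and 44 hpf, 0.943, 0.926 and 0.756 for the mki67 comparison at 16, 24 and 44 hpf, 0.906, 1.103 and 1.56 for non-neural over progenitor-like cells at 16, 24 and 44 hpf. Without the 5 most abundant members they were 0.998 and 0.871 for progenitor-like cells over both steps, 0.917 and 0.897 for differentiating cells over both steps, 0.926 and 0.953 for differentiating over progenitor-like cells at 24 and 44 hpf, 0.931 for non-neural over progenitor-like cells at 16 hpf. With 2 UMIs of mki67 required the ratio was 0.961 for the mki67 comparison at 24 hpf. With 3 UMIs of the G2 and M phase list in place of mki67 the ratios were 0.956, 0.925 and 0.777 for the mki67 comparison at 16, 24 and 44 hpf. With the state read from 2000 drawn UMIs they were 0.973 and 0.967 for the mki67 comparison at 16 and 24 hpf. The remaining alternatives were chosen after seeing the data. With the 5 entries in capitals counted as members the ratios were 0.948 for progenitor-like cells from 16 to 24 hpf, 0.866 for differentiating cells from 16 to 24 hpf, 0.918 and 0.945 for differentiating over progenitor-like cells at 24 and 44 hpf, 0.965 and 0.944 for the mki67 comparison at 16 and 24 hpf, 0.948, 1.07 and 1.37 for non-neural over progenitor-like cells at 16, 24 and 44 hpf. Without the stress list in the denominator they were 0.989 and 0.873 for progenitor-like cells over both steps, 0.909 and 0.905 for differentiating cells over both steps, 0.956 for differentiating over progenitor-like cells at 44 hpf, 0.936 for non-neural over progenitor-like cells at 16 hpf. Without the cluster led by snap25a they were 0.927 and 0.906 for differentiating cells over both steps, 0.947 and 0.993 for differentiating over progenitor-like cells at 24 and 44 hpf. With mesenchyme-like cells alone as the non-neural cells they were 0.975, 1.12 and 1.38 for non-neural over progenitor-like cells at 16, 24 and 44 hpf. Without the 2 cells rich in haemoglobin UMIs the ratio was 1.37 for non-neural over progenitor-like cells at 44 hpf. The ratio of non-neural over progenitor-like cells at 24 hpf, 1.07 in the report, thus turned to 0.999 with all cells kept. The classes were then formed anew, with 139 mesenchyme-like cells in place of 211 at 24 hpf, and with none at 16 hpf, where 364 cells were unnamed, so these values do not show the effect of keeping the cells alone. The ratio of differentiating over progenitor-like cells at 16 hpf lay on either side of 1. The causes were not tested.

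Of 156 counts of members past the fold, 117 stayed within 1.5 times and 39 moved. At a fold lower than 1.5, the members past the fold were 7 in progenitor-like cells from 16 to 24 hpf, 6 in differentiating cells from 16 to 24 hpf, 1 in cells with over without mki67 at 16 hpf, 1 in cells with over without mki67 at 44 hpf and 72 in non-neural over progenitor-like cells at 44 hpf higher, and 4 in progenitor-like cells from 16 to 24 hpf, 19 in progenitor-like cells from 24 to 44 hpf, 12 in differentiating cells from 16 to 24 hpf, 21 in differentiating cells from 24 to 44 hpf, 1 in differentiating over progenitor-like cells at 44 hpf and 31 in cells with over without mki67 at 44 hpf lower. At a fold of 2, the members past the fold were 0 in differentiating over progenitor-like cells at 44 hpf and 1 in non-neural over progenitor-like cells at 44 hpf higher, and 1 in progenitor-like cells from 16 to 24 hpf, 2 in progenitor-like cells from 24 to 44 hpf, 1 in differentiating cells from 16 to 24 hpf, 0 in differentiating cells from 24 to 44 hpf and 0 in differentiating over progenitor-like cells at 16 hpf lower. With a minimum of 100 CPM, the members past the fold were 1 in progenitor-like cells from 16 to 24 hpf, 2 in progenitor-like cells from 24 to 44 hpf, 1 in differentiating cells from 16 to 24 hpf, 1 in differentiating over progenitor-like cells at 16 hpf and 0 in differentiating over progenitor-like cells at 24 hpf lower. With no minimum level, the members past the fold were 1 in differentiating cells from 24 to 44 hpf, 3 in differentiating over progenitor-like cells at 44 hpf, 1 in cells with over without mki67 at 24 hpf, 1 in cells with over without mki67 at 44 hpf and 1 in non-neural over progenitor-like cells at 24 hpf higher, and 4 in progenitor-like cells from 16 to 24 hpf, 4 in differentiating over progenitor-like cells at 16 hpf, 2 in differentiating over progenitor-like cells at 24 hpf, 1 in differentiating over progenitor-like cells at 44 hpf and 1 in cells with over without mki67 at 16 hpf lower. Relative to the UMIs of other genes, which multiplies every gene of a comparison by 1 factor, the members past the fold were 1 in cells with over without mki67 at 44 hpf and 56 in non-neural over progenitor-like cells at 44 hpf higher, and 6 in differentiating cells from 24 to 44 hpf, 1 in differentiating over progenitor-like cells at 44 hpf and 1 in cells with over without mki67 at 44 hpf lower. As means over cells, the members past the fold were 1 in cells with over without mki67 at 44 hpf higher.

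Of 728 ratios of named members, 7 turned direction. By the same common factor, which carries ratios near 1 across it, rpl28 from 24 to 44 hpf in progenitor-like cells was at 0.991, and over progenitor-like cells rps28 was at 0.992 in non-neural cells of 16 hpf and rplp2l at 1.01 at 24 hpf. With 2000 UMIs drawn, rplp2l was at 1.01. With all cells kept, rps28 was at 0.995 at 16 hpf, and rps21 at 0.944 and rpl18 at 0.996 at 44 hpf. Depth limits the cells of 44 hpf most, of which 658 held fewer than 2000 UMIs and were left out of the drawn values.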

Other observations

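Cells that were left unnamed held shares of 30.3% at 24 hpf (143 cells, of a cluster with neurod4 and neurog1 among its leading genes). The cluster of 44 hpf led by vsx1 and foxn4 was classed as differentiating, and 83.7% of its 43 cells had an mki67 UMI. Its share was 23.5%, close to that of the nefmb and isl1 cluster (23.6%, 101 cells), in which 0.990% of the cells had one.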
